A study of Mus musculus with 16 samples.

Results

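The sarcomeric myosin heavy chains are the 9 genes *Myh1*, *Myh2*, *Myh4*, *Myh7*, *Myh7b*, *Myh6*, *Myh13*, *Myh3* and *Myh8*, taken from the mouse hamstring table by their gene symbols. All 9 were present among its 26382 genes. Hamstring muscle was sequenced as bulk poly(A) RNA in 16 libraries from 9 female C57BL/6 mice aged 8 to 10 weeks and killed 14 days after injection. In mice m862 to m866, the left leg is labelled as injected with recombinant histidyl-tRNA synthetase (HRS, the Jo-1 autoantigen, at 3 to 5 mg/mL) and gave 5 HRS libraries, and the right leg, labelled as injected with PBS, gave 5 contralateral PBS libraries. The mice m867 and m868 received PBS alone and gave 4 PBS-only libraries, a right and a left leg from each. The mice m860 and m861, immunized by their titles with a fusion to MBP at 2 to 3 mg/mL, gave 1 library each, with no leg stated, and are called HRS-MBP. Their treatment label reads HRS at 3 to 5 mg/mL, as for the HRS legs. The titles name the injected material of the left legs and of the fusion only as "ma", and HRS comes from the treatment label. They separate that leg from a PBS leg within a mouse, whereas the protocol describes HRS in both hamstrings, and the titles were followed. The contralateral legs therefore belong to immunized animals, and only 2 mice were free of HRS.

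Myosin heavy chain is the motor of the thick filament, and each muscle fibre is typed by the isoform it contains. *Myh4* (type 2B), *Myh1* (type 2X) and *Myh2* (type 2A) are the fast isoforms of adult limb muscle, and *Myh7* is the slow, type 1 isoform, which is also used in the heart. *Myh3* (embryonic) and *Myh8* (neonatal) are made by developing muscle and again by regenerating fibres. *Myh6* is the alpha isoform of the heart, *Myh13* belongs to extraocular muscle, and *Myh7b* is an ancient isoform that is abundant as RNA in slow muscle, heart and muscle spindles.

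The genes lie in 3 places. In the annotation GENCODE M21 (GRCm38), all 9 are protein coding, and *Myh3*, *Myh2*, *Myh1*, *Myh4*, *Myh8* and *Myh13* form a cluster on the plus strand of chromosome 11, with *Myh3* from 67078300 to 67102291, *Myh2* from 67171027 to 67197517, *Myh1* from 67200052 to 67224575, *Myh4* from 67238029 to 67260446, *Myh8* from 67277124 to 67308634 and *Myh13* from 67321658 to 67371586. *Myh6* (54941921 to 54966927) and *Myh7* (54970684 to 54994626) are neighbours on the minus strand of chromosome 14, and *Myh7b* (155611212 to 155634307) is on the plus strand of chromosome 2. The transcripts used for length are close in size, from 5912 bases in *Myh4* to 6230 bases in *Myh7*. Their coding sequences are 5805 to 5826 bases long. The genes are paralogs, and reads from stretches that members share can be split between them by the counting.

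The promoter-side sequences of 5 cluster genes are shown because the adult fast and the developmental isoforms are neighbours in this cluster. Each line gives bases before the RefSeq start of the gene in GRCm38.p6, plus strand, 5′ to 3′, with capitals for letters shared by at least 3 members in runs of 14 or more bases and for TATAAA. The windows are chr11:67170777-67171026 for *Myh2*, chr11:67199852-67200051 for *Myh1* (cut at the start of the gene in GENCODE), chr11:67237562-67237811 for *Myh4*, chr11:67276874-67277123 for *Myh8* and chr11:67078050-67078299 for *Myh3*.
Myh2: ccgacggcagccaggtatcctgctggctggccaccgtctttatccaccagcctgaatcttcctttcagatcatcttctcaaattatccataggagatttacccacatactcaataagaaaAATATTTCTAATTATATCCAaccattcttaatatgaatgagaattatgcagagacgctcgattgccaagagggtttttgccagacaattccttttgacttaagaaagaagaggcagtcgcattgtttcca
Myh1: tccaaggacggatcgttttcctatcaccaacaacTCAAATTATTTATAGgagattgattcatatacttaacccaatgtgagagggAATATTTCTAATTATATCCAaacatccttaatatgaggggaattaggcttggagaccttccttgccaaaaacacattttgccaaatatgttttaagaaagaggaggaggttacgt
Myh4: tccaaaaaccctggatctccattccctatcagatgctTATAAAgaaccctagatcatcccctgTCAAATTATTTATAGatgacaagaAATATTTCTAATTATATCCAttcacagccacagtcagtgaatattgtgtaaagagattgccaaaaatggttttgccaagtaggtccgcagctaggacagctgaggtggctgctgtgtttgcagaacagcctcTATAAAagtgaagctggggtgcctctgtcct
Myh8: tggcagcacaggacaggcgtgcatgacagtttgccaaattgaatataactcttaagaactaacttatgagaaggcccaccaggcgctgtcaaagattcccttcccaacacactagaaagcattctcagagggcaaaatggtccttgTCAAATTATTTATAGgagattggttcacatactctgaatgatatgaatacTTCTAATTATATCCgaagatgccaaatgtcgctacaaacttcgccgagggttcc
Myh3: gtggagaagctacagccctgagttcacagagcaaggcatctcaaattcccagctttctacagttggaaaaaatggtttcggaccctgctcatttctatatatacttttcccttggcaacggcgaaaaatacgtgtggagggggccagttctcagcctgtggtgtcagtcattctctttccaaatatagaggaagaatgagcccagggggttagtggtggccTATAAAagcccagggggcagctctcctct

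A run of 14 letters, TTCTAATTATATCC, was present in the 250 bases before *Myh1*, *Myh2*, *Myh4* and *Myh8*, and it was found on either strand in 4 of 32851 RefSeq windows of that length (0.0122%), which are these 4 genes. In the fast genes *Myh1*, *Myh2* and *Myh4* it was part of a longer run of 20 letters, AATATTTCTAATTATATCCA, held by 3 windows (0.00913%). A run of 15 letters, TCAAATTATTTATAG, was shared by *Myh1*, *Myh4* and *Myh8* (0.00913% of windows). *Myh8* thus carries letters in common with the adult fast genes, while *Myh3* holds none of these runs. The letters TATAAA, searched on both strands, occurred in *Myh3*, *Myh1*, *Myh4* and *Myh8* and in 12.4% of all windows. In *Myh8* the match lies only on the reverse strand, inside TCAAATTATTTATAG, a run that *Myh1* and *Myh4* also hold. The forward match of *Myh1* lies 32 bases before its RefSeq start, in the bases cut from its line. The E-box letters CANNTG, which read the same on both strands, occurred in 7 of the 9 members and in 66.2% of windows. These matches describe sequence only.

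The hamstring libraries carried muscle transcripts at high levels, and 1 HRS library stood apart. The summed level of 8 skeletal muscle identity genes (such as *Acta1*, *Ckm* and *Ryr1*) was 61322 to 95377 normalized counts in contralateral PBS legs, 70746 to 85424 in PBS-only legs, 21292 to 83504 in HRS legs and 33016 to 33077 in HRS-MBP libraries. The HRS leg of m866 gave the highest of the HRS values, 83504, together with the lowest macrophage sum of its group, 1029 normalized counts against a group median of 2598 and a contralateral range of 101 to 278. All 7 macrophage, all 7 T cell, all 6 B and plasma cell and 4 of 6 fibroblast markers were higher in HRS than in contralateral legs by limma. Mitochondrial genes took 11.1% of the library of that leg, 3.41% to 6.29% of the other HRS legs, 9.69% to 11.2% of contralateral legs, 11.3% to 13.1% of PBS-only legs and 5.94% to 6.98% of HRS-MBP libraries. Depth was read from the step between low values, and 3 reads were worth 0.0324 to 0.0935 normalized counts in HRS legs, 0.0494 to 0.139 in contralateral legs, 0.0611 to 0.0667 in HRS-MBP libraries and 0.0853 to 0.364 in PBS-only libraries, with the right leg of m868 the shallowest. These floors cover counting error only.

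Muscle of all groups was dominated by *Myh4* RNA. It was the most abundant of all genes in each of the 16 libraries and made up 4.06% to 5.89% of the normalized counts of contralateral legs, 4.96% to 6.96% of PBS-only legs, 1.73% to 5.02% of HRS legs and 2.74% to 3.03% of HRS-MBP libraries. On the scale of normalized counts per kb of transcript, the levels in PBS-only legs were 11391 ± 1893 (SD, n = 4 libraries from 2 mice) for *Myh4*, 880 ± 121 for *Myh1*, 301 ± 79.7 for *Myh2* and 126 ± 34.6 for *Myh7*. Ranges of these 4 neighbours in the order did not overlap. The next levels per kb, all far lower, were 13.3 ± 8.36 for *Myh6*, 10.1 ± 4.76 for *Myh8*, 4.74 ± 1.90 for *Myh13*, 2.03 ± 0.839 for *Myh3* and 1.67 ± 0.253 for *Myh7b*, and here each gene's range overlapped that of the next. The contralateral legs had the same order, with overlap also between *Myh1*, *Myh2* and *Myh7*.

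In HRS legs the order differed below the fast genes. The per-kb levels were 4960 ± 3000 (SD, n = 5) for *Myh4*, 603 ± 170 for *Myh1* and 127 ± 94.8 for *Myh2*, followed by *Myh8* at 81.8 ± 54.8, *Myh3* at 47.0 ± 36.1 and *Myh7* at 39.1 ± 49.2. *Myh8* and *Myh3* thus stood between *Myh2* and *Myh7* by their means, although the ranges of these 4 genes overlapped and *Myh2* exceeded *Myh8* in only 2 of 5 HRS legs. *Myh6* (2.49 ± 1.02), *Myh13* (0.766 ± 0.257) and *Myh7b* (0.529 ± 0.410) came last. By the means of the 2 HRS-MBP libraries the first 6 genes came in the same order, although neither library alone showed it, and *Myh6* was the lowest of all there at 0.280 ± 0.329 (n = 2).

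**Figure D1:**
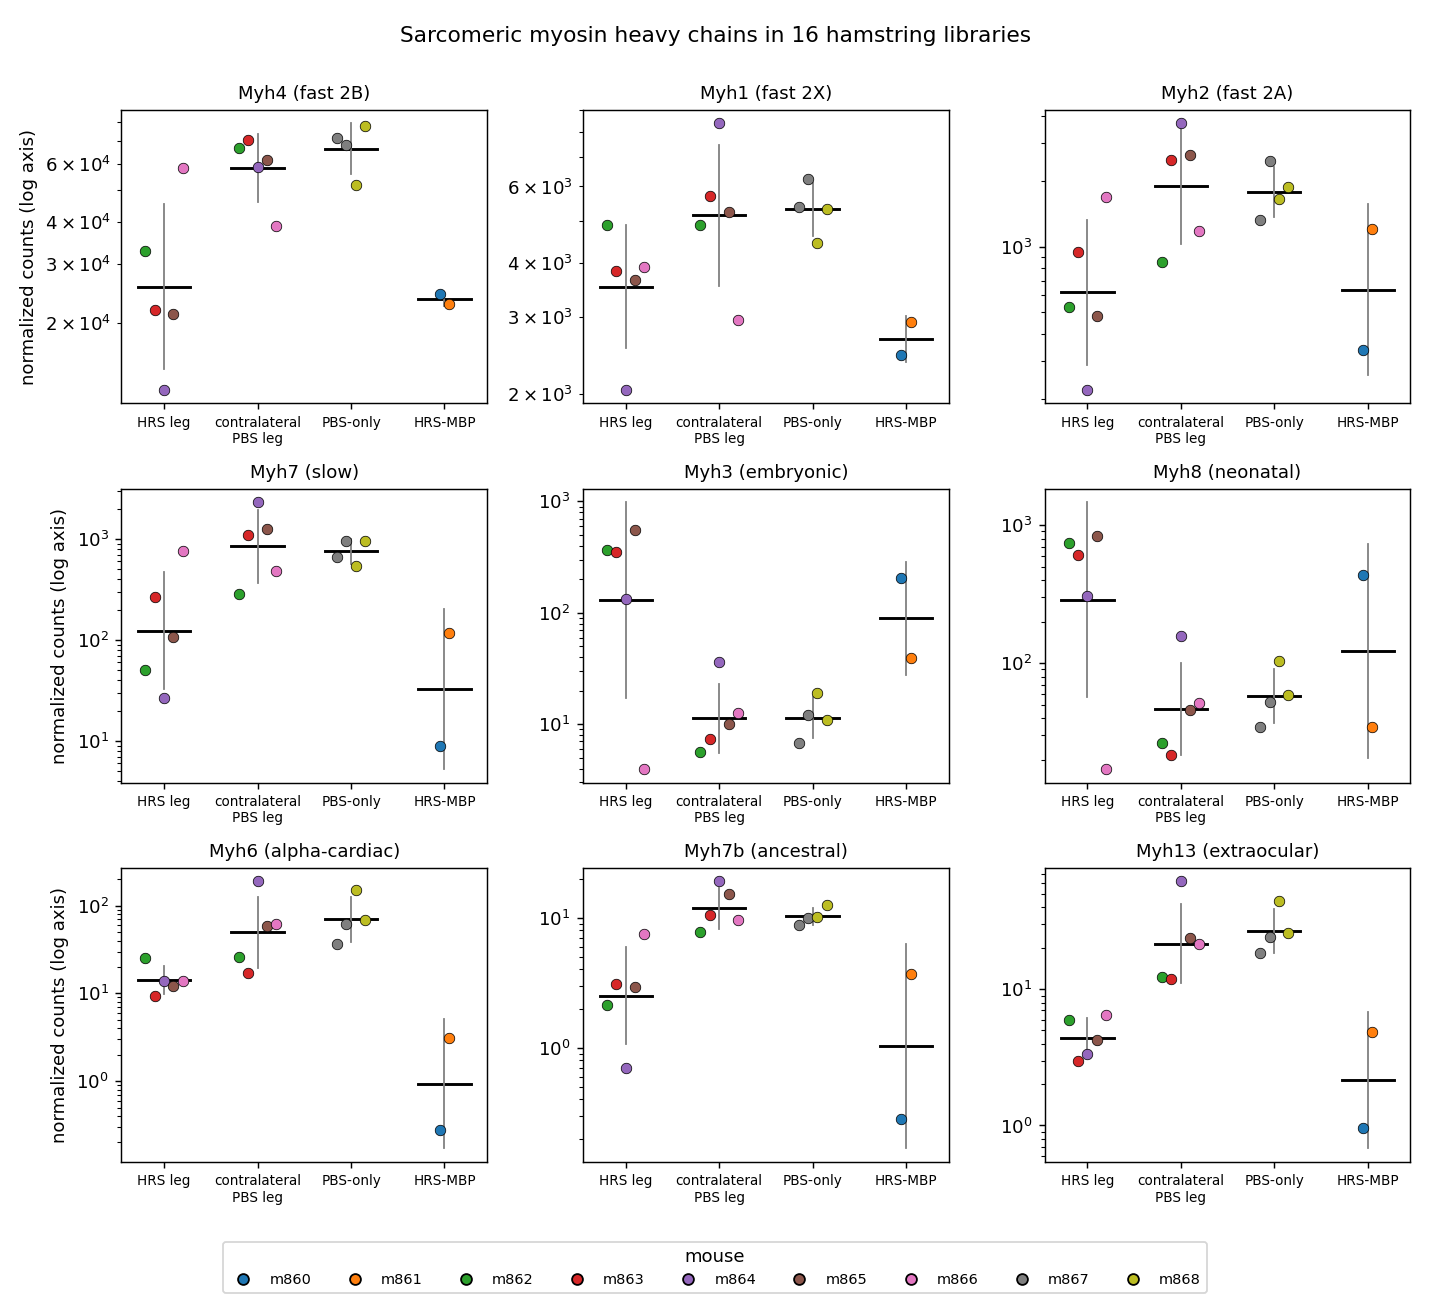
Normalized counts of the 9 myosin genes on log axes, 1 panel per gene, in HRS legs, contralateral PBS legs, PBS-only legs and HRS-MBP libraries. Points are libraries coloured by mouse, black lines are means and grey lines 1 SD of the log2 values; the HRS leg of m866 (pink) lies apart from the other HRS legs, within the PBS range for *Myh4* (58351 normalized counts) and below every PBS leg for *Myh3* (3.94) and *Myh8* (17.0).

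HRS legs were compared with the contralateral PBS legs to see which isoforms differed with the injected leg. Of the 9 genes, 2 were higher in HRS legs (the developmental *Myh3* and *Myh8*), 5 were lower (the slow *Myh7*, the fast *Myh2*, and *Myh7b*, *Myh6* and *Myh13*), and *Myh4* and *Myh1* did not pass the test. A gene was called in limma at a Benjamini-Hochberg adjusted p under 0.05 with an absolute log2 fold change above 1, adjusted over the 16414 genes tested. Across all of these, 16.9% were called higher and 6.27% lower. The legs are the left and right of the same 5 mice, and the test treated them as unpaired. With mouse as a fixed block 1 member was higher and 4 lower, and with mouse as a random block 2 were higher and 5 lower. The random block fitted a correlation of -0.15 between libraries of a mouse. This value is negative, so the legs of 1 mouse were not treated as alike. In bulk RNA fewer muscle fibres and less RNA per fibre cannot be told apart.

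The embryonic gene *Myh3* had the largest change of the 9. In the HRS legs of m862, m863, m864, m865 and m866, *Myh3* was at 366, 350, 132, 557 and 3.94 normalized counts, and in the contralateral legs of these mice at 5.57, 7.33, 35.9, 10.1 and 12.7. The PBS-only legs gave 6.83 and 12.2 (right and left of m867) and 18.9 and 10.8 (right and left of m868), and the HRS-MBP mice m860 and m861 gave 204 and 38.9. The HRS legs of m862 to m865 were above every PBS leg, whereas the HRS leg of m866 was below all of them, so that the groups overlapped. The mean was 282 ± 216 against 14.3 ± 12.4 in contralateral legs (SD, n = 5 each), a ratio of means of 19.7, and the log2 fold change was 3.48 with a standard error (SE) of 1.02 (adjusted p = 0.00862, limma). In 4 of 5 mice *Myh3* was higher on the HRS side. Without the HRS leg of m866 the log2 fold change was 4.71. That leg went against the other HRS legs in *Myh3*, *Myh8* and *Myh4* themselves. Leaving it out narrows their spread, so p-values given below without it are description and no separate support.

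*Myh8*, the neonatal isoform, was also high in the HRS legs of m862 to m865. Its levels in HRS legs were 746, 612, 307, 832 and 17.0 normalized counts in m862 to m866, against 26.6, 21.8, 157, 45.9 and 51.0 in the contralateral legs. PBS-only legs held 34.4, 52.7, 103 and 58.9, and HRS-MBP libraries 432 (m860) and 34.5 (m861). These 4 HRS legs exceeded every PBS leg, the HRS leg of m866 was below every PBS leg, and m861 lay within the PBS range, whereas its *Myh3* had been above it. The mean was 503 ± 337 against 60.4 ± 55.2 (SD, n = 5 each), and the log2 fold change of 2.63 (SE 0.945) had an adjusted p of 0.0253 in limma. The exact permutation p of the 10 libraries was 0.0635, and the sign flip p of the 5 pairs 0.1875 (both two-sided, unadjusted). With mouse as a fixed block this p was 0.0629 and with mouse as a random block 0.0369. It lay between 0.0570 and 0.0667 when the HRS leg of m862, m863 or m865 or the contralateral leg of m862 or m863 was left out, each of which ended the call. Without the HRS leg of m866 the log2 fold change was 3.64 with an adjusted p of 0.000133.

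The difference in m864 was smaller than in m862, m863 and m865. The within-mouse log2 differences (HRS leg minus PBS leg) of *Myh3* were 5.91, 5.49, 1.87, 5.72 and -1.57, and those of *Myh8* were 4.78, 4.78, 0.97, 4.17 and -1.56. The contralateral leg of m864 held the highest *Myh3* and *Myh8* of its group, and its HRS leg the lowest apart from m866. Left and right legs of the PBS-only mice differed by at most 0.79 for *Myh3* and 0.81 for *Myh8* on the same log2 scale.

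**Figure D2:**
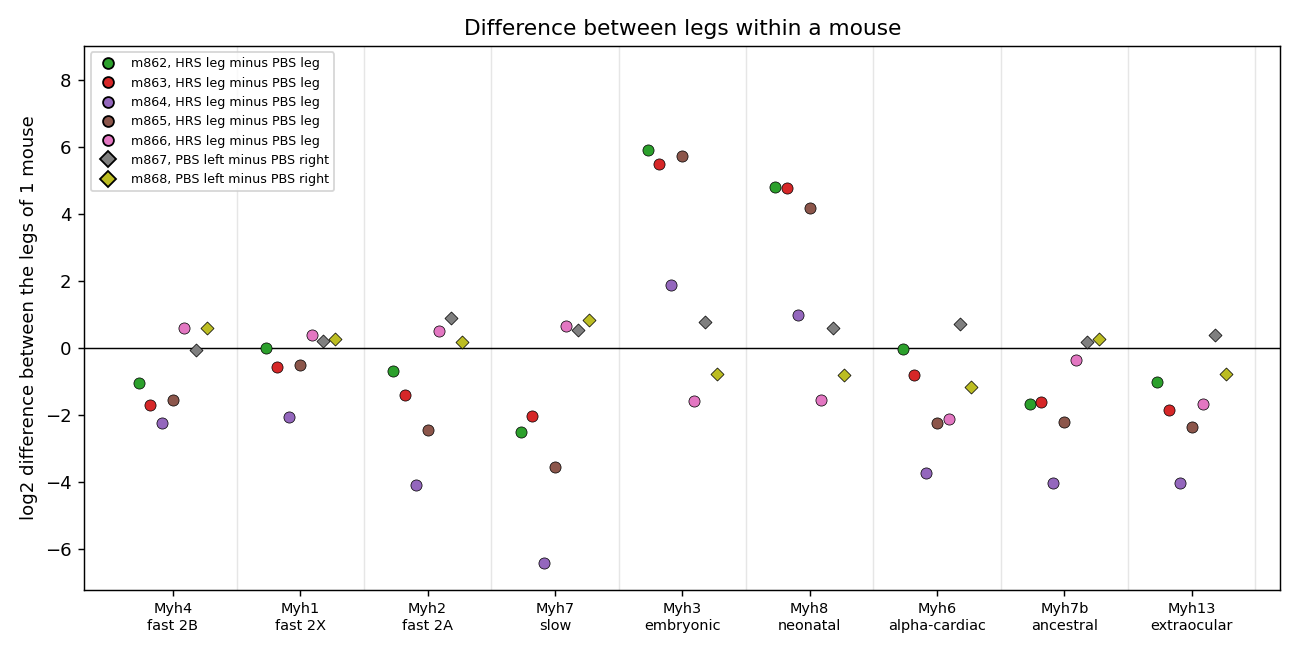
Log2 difference between the legs of each mouse for the 9 myosin genes, with circles for HRS leg minus contralateral PBS leg in m862 to m866 and diamonds for left minus right leg in the PBS-only mice m867 and m868. *Myh3* and *Myh8* lie above 0 in 4 of 5 circles and *Myh7b*, *Myh6* and *Myh13* below 0 in all 5, while m866 lies above 0 for *Myh4*, *Myh1*, *Myh2* and *Myh7*.

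Among adult isoforms, the slow gene *Myh7* showed the largest difference. HRS legs held 50.0, 270, 26.7, 107 and 765 normalized counts in m862 to m866, and contralateral legs 283, 1098, 2322, 1254 and 484. PBS-only legs held 660, 963, 541 and 965, and the HRS-MBP libraries 8.95 and 118. The HRS leg of m866 was again the exception and exceeded its own PBS leg, and contralateral legs spread widely, from 283 to 2322. The mean was 244 ± 306 against 1088 ± 800 (SD, n = 5 each), 4.47 times lower in HRS legs, and *Myh7* fell by 2.76 on the log2 scale (SE 0.847, adjusted p = 0.0111, limma). This call held in all 26 alternatives computed, with adjusted p from 0.000874 to 0.0438. Without the HRS leg of m866 the log2 fold change of *Myh7* was -3.42 and its mean was 9.61 times lower. Within mice the differences were -2.49, -2.02, -6.41, -3.55 and 0.66.

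*Myh2*, the isoform of type 2A fibres, followed *Myh7*. Its levels were 530, 941, 220, 482 and 1695 normalized counts in HRS legs and 855, 2491, 3696, 2624 and 1184 in contralateral legs, and the PBS-only legs lay at 1329, 2477, 1647 and 1872. The HRS-MBP libraries gave 335 and 1204. Levels were lower in the HRS leg in 4 of 5 mice, and m866 had the highest HRS value. *Myh2* fell by 1.62 (SE 0.523, adjusted p = 0.0148, limma), from a mean of 2170 ± 1155 to 774 ± 576 (SD, n = 5 each). The call ended with mouse as a fixed block (adjusted p = 0.0735, against 0.0202 with mouse as a random block, limma) and when libraries were scaled to equal summed skeletal muscle markers (log2 fold change -0.55, or -1.59 relative to the median of all genes under that scaling).

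The most abundant isoform, *Myh4*, was not called. HRS legs had 32711, 21862, 12540, 21167 and 58351 normalized counts, contralateral legs 67004, 70649, 58802, 61490 and 38953, and PBS-only legs 71560, 68090, 51724 and 77996. HRS-MBP libraries had 24387 and 22692. In m862 to m865 each HRS leg was below every PBS leg of the study, while m866 went the other way, with its HRS leg above its PBS leg. The mean was 29326 ± 17734 against 59380 ± 12321 (SD, n = 5 each). The log2 fold change was -1.18 with an SE of 0.718 and an adjusted p of 0.163 in limma, and the exact permutation p of the 10 libraries was 0.0159 (two-sided, unadjusted). Without the HRS leg of m866 the log2 fold change was -1.48 with an adjusted p of 0.0170, and *Myh4* was then called. It was also called without a trend of the variance on the mean (adjusted p = 0.00489) and with genes filtered at a mean of 5 (0.0178). It was not called with mouse as a fixed block (0.548) or a random block (0.189), and quantile normalization, under which the top gene of each library takes the same value, gave a log2 fold change of 0.

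*Myh1*, the type 2X isoform, had the smallest difference. Its HRS legs were at 4900, 3831, 2040, 3657 and 3910 normalized counts and the contralateral legs at 4888, 5692, 8399, 5227 and 2956, against 5380, 6249, 4445 and 5333 in PBS-only legs. HRS-MBP libraries were at 2458 and 2922. The HRS leg was lower in 3 of 5 mice and the groups overlapped. The log2 fold change of -0.54 (SE 0.313, adjusted p = 0.142, limma) was not called, and its sign depended on the scaling, at 0.23 with quantile normalization and 0.52 with equal skeletal muscle markers. The latter scaling moved the median of all genes to 1.04, and relative to that median *Myh1* was at -0.52.

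The 3 genes that are rare in limb muscle were lower in the HRS leg in all 5 mice, which was the case for 8.97% of all genes tested. *Myh13* was at 5.94, 2.97, 3.37, 4.21 and 6.44 normalized counts in HRS legs and at 12.4, 11.9, 62.2, 23.8 and 21.7 in contralateral legs. PBS-only legs gave 18.5, 24.2, 44.8 and 26.1, and HRS-MBP libraries 0.950 and 4.85. All HRS legs, m866 included, were below all PBS legs. The log2 fold change was -2.18 (SE 0.430, adjusted p = 0.000846, limma), from a mean of 26.4 ± 20.7 to 4.59 ± 1.54 (SD, n = 5 each).

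*Myh7b* likewise showed no overlap. HRS legs held 2.12, 3.10, 0.697, 2.94 and 7.45 normalized counts, contralateral legs 7.76, 10.5, 19.03, 15.2 and 9.64, and PBS-only legs 8.73, 9.87, 10.2 and 12.45. HRS-MBP libraries held 0.285 and 3.67. The HRS leg of m866 was the nearest to the PBS legs. *Myh7b* fell by 1.97 (SE 0.459, adjusted p = 0.00230, limma). *Myh7b* and *Myh13* were the 2 members without overlap between HRS and contralateral legs, against 3.19% of genes tested for which all HRS legs were lower, and for each the exact permutation p was 0.00794, the smallest these 10 libraries can give.

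*Myh6*, the alpha-cardiac isoform, spread more widely over PBS legs than over HRS legs. It was at 25.5, 9.43, 13.9, 12.1 and 13.9 normalized counts in HRS legs and at 26.1, 16.9, 190, 58.7 and 62.2 in contralateral legs. PBS-only legs gave 37.1, 61.1, 152 and 68.4, and the HRS-MBP libraries gave 0.281 and 3.08. The difference within m862 was only -0.03 and that within m864 -3.72. The log2 fold change was -1.78 (SE 0.574, adjusted p = 0.0144, limma). The call ended with libraries scaled to equal totals (adjusted p = 0.0579), with voom weights (0.0754) and with equal skeletal muscle markers (0.289). Under the last of these the log2 fold change was -0.74, or -1.78 relative to the median of all genes.

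The contralateral leg of m864 and the right PBS-only leg of m868 held the highest *Myh6* and *Myh13* of all libraries, and these were also the shallowest library of the contralateral group and the shallowest of all. Of 9 cardiac markers, 3 passed the filter on low values, and *Tnni3*, cardiac troponin I, was highest in the same 2 libraries, at 18.0 and 14.3 normalized counts against 1.57 to 9.67 in the other libraries. *Nppa*, the atrial natriuretic peptide, was at most 0.323 in any library and *Myl7*, the atrial light chain, at most 1.11. The summed cardiac markers were 8.28 to 32.6 in PBS legs and 12.8 to 198 in HRS legs. In HRS legs other than that of m866 the sum came mostly from *Sln* (sarcolipin, also a gene of developing muscle). In the HRS leg of m866, *Sln* was 5.92 of 12.8. The log2 fold change of *Sln* was 3.36 (adjusted p = 0.00230, limma). The part of cardiac transcripts in the *Myh6* values was not tested.

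Against the 2 PBS-only mice, HRS legs had 1 member higher and 5 lower, with 18.9% of all tested genes called higher and 5.87% lower. *Myh3* was higher by 3.48 on the log2 scale (SE 1.08, adjusted p = 0.0123, limma). *Myh7* was lower by a log2 fold change of -2.60 (adjusted p = 0.0208), *Myh2* of -1.53 (0.0265), *Myh13* of -2.49 (0.000448), *Myh6* of -2.26 (0.00542) and *Myh7b* of -1.77 (0.00613), all by limma. *Myh13*, *Myh6* and *Myh7b* did not overlap between the groups, which held for 5.18% of genes in the lower direction. *Myh8* (2.32, adjusted p = 0.0563), *Myh4* (-1.38, 0.129) and *Myh1* (-0.59, 0.135) were not called by limma. Without the HRS leg of m866, *Myh8* (3.33, adjusted p = 0.000467) and *Myh4* (-1.67, adjusted p = 0.0114) were called.

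This comparison uses the same HRS libraries as the comparison within mice, so the agreement of its calls adds no separate evidence. The legs of a PBS-only mouse share an animal, and with the legs of each averaged into 1 sample, 3 members remained lower and 0 were higher. *Myh2* then had an adjusted p of 0.0941, *Myh7* of 0.0860 and *Myh3* of 0.0684 (limma). The *Myh2* call ended also without the HRS leg of m864 or m865 or without the left leg of m867 or m868 (adjusted p = 0.0537 to 0.0733), and with scaling to equal totals (0.0564), quantile normalization (0.0619), voom (0.0586) and equal skeletal muscle markers (0.224). That of *Myh7* ended without the HRS leg of m862 or m864 or the left leg of m867 (0.0506 to 0.0564) and with equal skeletal muscle markers (0.0611). The latter scaling also ended the calls of *Myh7b* (0.0685) and *Myh6* (0.0880). The log2 fold changes under it were -1.65 for *Myh7*, -0.96 for *Myh7b*, -1.32 for *Myh6* and -0.57 for *Myh2*. Relative to the median of all genes, which it moved to 1.02, they were -2.66, -1.97, -2.34 and -1.59. Taking off that median largely undoes the scaling, so these last values are no separate check. *Myh6* was not called either without the HRS leg of m866 and both legs of m868 (0.0798).

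The contralateral PBS legs and the PBS-only legs, compared to see whether HRS in 1 leg went with a difference in the other, had no member called. No member had an unadjusted p under 0.05 in limma either, and 0.00609% of all tested genes were called. Log2 fold changes of the members lay between -0.48 (*Myh6*, SE 0.609) and 0.20 (*Myh7b*, 0.486). Standard errors reached 1.08 (*Myh3*), so small differences could not be seen with these libraries. All 9 members overlapped between the 2 groups, whereas 2.58% of genes tested did not. The contralateral legs spread more widely than PBS-only legs, as in *Myh7* (283 to 2322 against 541 to 965 normalized counts). They come from 5 mice and the PBS-only legs from 2, so the 2 spreads are not directly comparable.

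The HRS-MBP libraries were set beside the PBS-only legs. *Myh6*, *Myh7*, *Myh13* and *Myh7b* were lower, no member was called higher, and 5 members had an unadjusted p under 0.05 in limma, with 10.2% of tested genes called lower and 20.7% higher. *Myh6* had a log2 fold change of -5.39 (SE 0.786, adjusted p = 6.41e-05), *Myh7* of -4.51 (1.16, 0.00465), *Myh13* of -3.30 (0.589, 0.000358) and *Myh7b* of -2.57 (0.628, 0.00342). *Myh6* was at 1.68 ± 1.98 normalized counts (SD, n = 2) against 79.7 ± 50.2 (SD, n = 4), 47.4 times lower by its means, and 25.9 times lower without m860 and 284 times lower without m861. *Myh4* (-1.50, adjusted p = 0.201), *Myh2* (-1.49, 0.0861), *Myh1* (-0.99, 0.0598), *Myh3* (2.91, 0.0863) and *Myh8* (1.08, 0.487) were not called by limma. *Myh4* was called with only the groups compared, with genes filtered at a mean of 5, with voom and without a mean trend (adjusted p = 0.00410 to 0.0276). *Myh3* was called with only the groups compared (0.00187), with equal skeletal muscle markers (0.0301) and without the HRS leg of m866 and both legs of m868 (0.00686). *Myh2* was called with only the groups compared (0.0147) and without m861 (0.0432), and *Myh1* with median-of-ratios scaling (0.0419). With 2 against 4 libraries, 8 of 9 members did not overlap, and 70.4% of all genes did not either.

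The 2 HRS-MBP mice differed from each other. The library of m860 had more *Myh3* (204 against 38.9 normalized counts) and *Myh8* (432 against 34.5) and less *Myh7* (8.95 against 118), *Myh2* (335 against 1204) and *Myh7b* (0.285 against 3.67) than that of m861. *Myh6* (0.281 against 3.08) and *Myh13* (0.950 against 4.85) were also lower in m860. *Myh4* and *Myh1* were close in the 2 mice. Without m860, *Myh7* and *Myh7b* lost their calls against PBS-only legs, with the lone m861 assumed to vary like the other groups. Their log2 fold changes were then -2.68 and -1.36, and that of *Myh8* turned to -0.74. By its means *Myh7* was 6.64 times lower without m860 and 87.4 times lower without m861.

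Set directly against HRS legs, HRS-MBP libraries had no member called, with 0.463% of tested genes called, and 1 member had an unadjusted p under 0.05 in limma. That member was *Myh6*, at 0.281 and 3.08 normalized counts against 9.43 to 25.5 in HRS legs, with no overlap (8.4% of genes tested were lower without overlap) and a log2 fold change of -3.13 (SE 0.759, adjusted p = 0.0881, limma). Without the HRS leg of m864 the adjusted p was 0.0325. The titles give another preparation and dose for the HRS-MBP mice, the treatment label does not, and their leg is not stated.

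**Figure D3:**
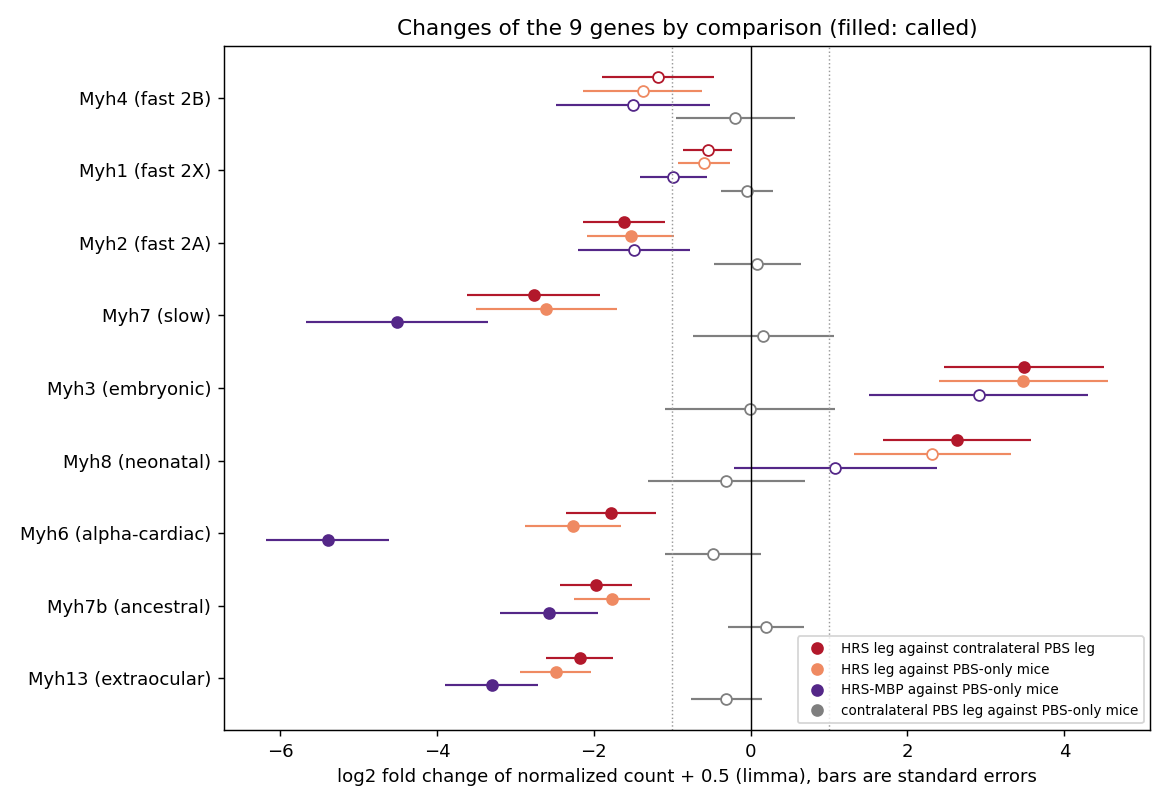
Log2 fold changes of the 9 myosin genes in limma (x axis, on log2 of normalized count + 0.5) with standard errors as bars, for 4 comparisons that share libraries. Filled points were called; *Myh3* and *Myh8* lie to the right and *Myh7*, *Myh6*, *Myh7b* and *Myh13* to the left wherever HRS libraries are compared, and all points of the contralateral against PBS-only comparison lie between -0.48 and 0.20.

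Isoform composition was described as the share of each class in the summed per-kb level of the 9 genes, which does not depend on the scaling of a library. Fast isoforms made up nearly all of it in every group, with means of 96.6% ± 1.62 (SD, n = 5) in HRS legs, 98.2% ± 1.16 in contralateral legs, 98.8% ± 0.226 (n = 4) in PBS-only legs and 98.5% ± 1.09 (n = 2) in HRS-MBP libraries. The developmental share was 2.75%, 3.37%, 2.80%, 5.06% and 0.0314% in the HRS legs of m862 to m866. It was 0.0426%, 0.0353%, 0.254%, 0.0767% and 0.141% in their PBS legs. In 4 of 5 mice the developmental share was thus above 2% in the HRS leg and below 0.3% in the other. PBS-only legs lay at 0.0505% to 0.202%, and the HRS-MBP libraries at 2.22% (m860) and 0.266% (m861).

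The slow share went the other way in the same 4 mice. It was 0.121%, 0.924%, 0.167%, 0.380% and 1.12% in HRS legs and 0.369%, 1.31%, 3.01%, 1.69% and 1.05% in contralateral legs, and the groups overlapped. PBS-only legs held 0.795% to 1.18% and HRS-MBP libraries 0.0306% and 0.416%. In the HRS legs of m862 to m865 the developmental genes thus outweighed the slow gene, and in the HRS leg of m866 and in all PBS legs the slow gene outweighed them. The 3 rare genes together made 0.0736% ± 0.0287 (n = 5) in HRS legs and 0.164% ± 0.129 in contralateral legs, lower in 3 of 5 mice, and single shares of *Myh7b* and *Myh13* were lower in all 5. Shares add to a fixed total, so a rise in 1 class lowers the others.

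**Figure D4:**
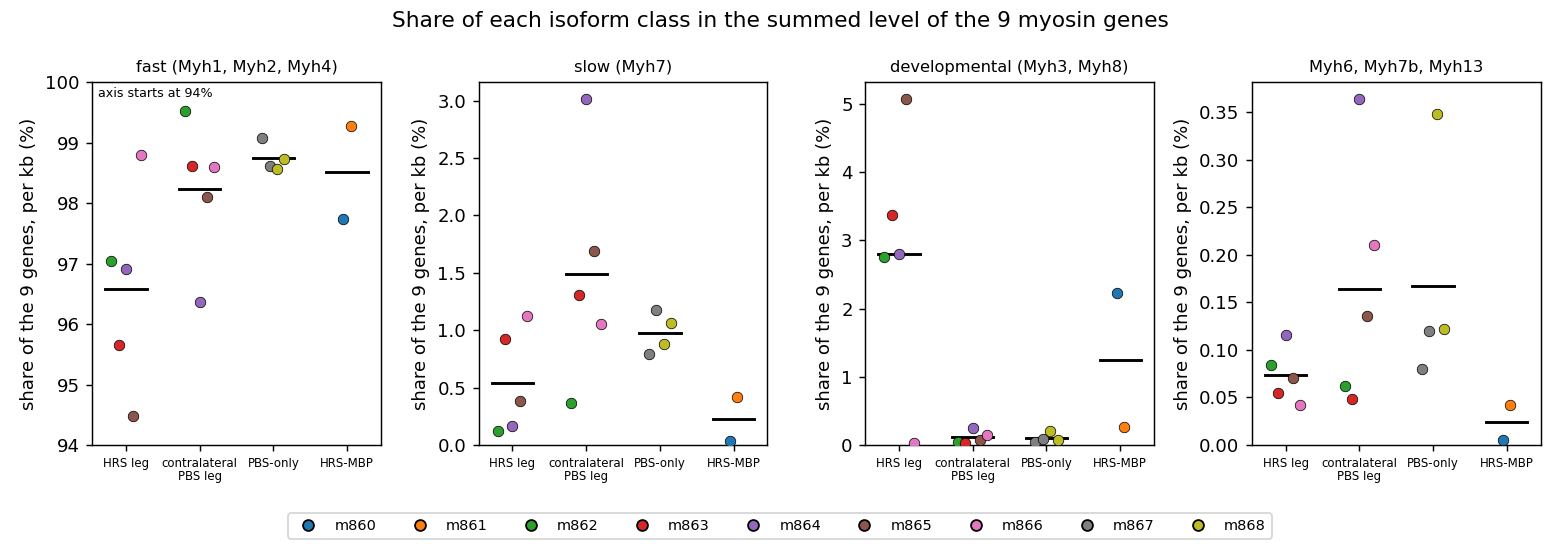
Share (%) of fast, slow, developmental and rare isoforms in the summed per-kb level of the 9 myosin genes, 1 panel per class, by group, with points for libraries coloured by mouse and black lines for group means. The developmental panel shows 4 HRS legs between 2.75% and 5.06% and m866 at 0.0314%; the fast panel starts at 94%.

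Among the fast genes, *Myh1* took a larger share of the summed per-kb level of the 9 genes in 4 of 5 HRS legs, at 12.2%, 13.4%, 13.0%, 13.3% and 5.89% in m862 to m866 against 6.52%, 6.94%, 11.2%, 7.21% and 6.59% in their PBS legs. The log2 ratio of *Myh1* to *Myh4* was 0.64 higher in HRS legs, and the differences were -0.44 for *Myh2* to *Myh4* and -1.59 for *Myh7* to *Myh4*. None of the 3 ratios passed an exact permutation test over the 10 libraries (two-sided, p = 0.111, 0.365 and 0.0873, adjusted over the 3 ratios 0.167, 0.365 and 0.167). In 4 of 5 mice the *Myh1* to *Myh4* ratio was higher on the HRS side, and without m866 it was 0.84 higher. The exact permutation p was then 0.0286, not adjusted over the 3 ratios.

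The genes whose pattern was most like that of each member were found by Pearson correlation of log2 values, taken as deviations from the group means over 16 libraries, as a description. The libraries share their scaling and their muscle content. *Myh7* was closest to *Myl2* (r = 0.991) and *Myl3* (0.986), the light chains of slow muscle, and then to *Myh2* (0.959), whose own nearest gene was *Myoz2* (0.962), a Z-disc gene of slow fibres. The third nearest gene of *Myh2* was *Myl3* (0.949). *Myh7b* was also closest to *Myl3* (0.954), then to *Myh7* (0.940) and *Ldhb* (0.932), a lactate dehydrogenase subunit of oxidative muscle. *Myh4* was closest to *Eya1* (0.993), a cofactor of the fast fibre programme, *Scn4a* (0.992), the muscle sodium channel, and *Hif1an* (0.989). *Myh1* was closest to *Adprhl1* (0.899), *Lmod3* (0.888), a leiomodin of thin filaments, and *Ola1* (0.870).

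The developmental genes formed a pair, and so did *Myh6* and *Myh13*. *Myh3* and *Myh8* were each other's nearest gene (r = 0.972). Next to *Myh3* came *Dcakd* (0.966) and *C1qtnf3* (0.961), and next to *Myh8* came *Tnc* (0.958), the matrix glycoprotein tenascin C, and *Cemip* (0.940). *Myh6* and *Myh13* were nearest to each other (0.952). Next to *Myh6* came *Gm2308* (0.908) and *Gm5335* (0.905), and next to *Myh13* the antibody genes *Igkc* (0.874) and *Jchain* (0.866). *Myh3* with *Myh7* had r = -0.443 and *Myh4* with *Myh6* had r = -0.140.

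The other genes of the contractile programmes were read from lists and compared between HRS and contralateral legs. Of 14 genes of the fast fibre programme, 0 were higher and 9 lower, with a median log2 fold change of -1.12 against 0.08 over all tested genes. Of 13 slow fibre genes, 1 was higher (*Casq2*, cardiac and slow calsequestrin) and 7 lower, with a median of -1.02, and *Mybpc1*, slow myosin binding protein C, fell by 1.13 (SE 0.243, adjusted p = 0.00140, limma). Against PBS-only mice 1 of these 13 was higher and 2 lower, with a median of -0.49, where 5.87% of all tested genes were called lower. There *Mybpc1* was at -0.77 and not called. The slow light chain *Myl2*, chosen here after its values were seen, fell by 2.90 (adjusted p = 0.0118, limma). Of 11 genes for thick filament structure, myosin folding and turnover, 5 were lower and 0 higher, where 6.27% of all tested genes were called lower. Without the HRS leg of m866, 8 of the 11 were lower, where 9.74% of all tested genes were.

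Genes of embryonic contraction and myogenic differentiation went the other way, with 5 of 11 higher, 0 lower and a median of 1.42, against 16.9% of all tested genes called higher. *Myl4*, the embryonic light chain, was at 152 ± 95.2 normalized counts in HRS legs and 11.1 ± 4.54 in contralateral legs (SD, n = 5 each), a log2 fold change of 3.33 (SE 0.658, adjusted p = 0.000853, limma), and in the HRS leg of m866 it was at 15.5. *Myog*, the myogenic factor of differentiation, was at 49.5 ± 30.1 against 10.2 ± 3.10 (log2 fold change 2.01, adjusted p = 0.00108, limma). *Mymk*, the fusion factor myomaker, named after its values were seen, had the largest change of the list at 3.78 (adjusted p = 0.00118, limma). Movement in 1 direction in all 5 mice was a condition for naming *Myl4*, *Myog*, *Mybpc1* and *Myh9*.

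Among regulators of fibre type, 4 of 17 tested were lower, with *Eya1* lowest at a log2 fold change of -1.19, and 7 were lower without the HRS leg of m866 (6.27% of all tested genes were called lower with every library and 9.74% without that leg). Of 4 non-sarcomeric heavy chains, *Myh9*, the non-muscle myosin 2A of most cells, was higher at 286 ± 89.3 against 98.2 ± 14.9 normalized counts (SD, n = 5 each, log2 fold change 1.48, adjusted p = 5.95e-05, limma), and *Myh14* was lower. Of 7 muscle spindle genes, 2 were higher and 0 lower, a count near the 16.9% of all tested genes called higher. *Egr3*, a factor of muscle spindles, had a log2 fold change of 1.91 (adjusted p = 0.00108, limma). *Egr3*, *Eya1*, *Casq2* and *Myh14* were named after their values were seen.

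Values of other cells moved with these groups. The summed fibroblast markers were 2414 to 24239 normalized counts in HRS legs and 1090 to 2606 in contralateral legs, and the summed T cell markers 20.04 to 131 against 1.44 to 3.69, with the HRS leg of m866 lowest of its group in both. Its B and plasma cell sum, 212, was above the HRS group median of 165 and the contralateral range of 2.08 to 22.8. Of 5 adipocyte markers 4 were lower in HRS than in contralateral legs (median log2 fold change -1.88), and 0 were called against PBS-only mice (median -1.48). Their sum was 253 to 2562 normalized counts in contralateral legs and 304 to 545 in PBS-only legs. In HRS-MBP libraries against PBS-only legs, all 7 macrophage, all 7 T cell and all 6 B and plasma cell markers were higher, and 2 of 5 endothelial and 2 of 5 Schwann cell markers lower. Between HRS and contralateral legs, skeletal muscle identity genes were lower in 3 of 8 (median log2 fold change -0.9995), and in 5 of 8 without the HRS leg of m866. With libraries scaled to equal skeletal muscle markers, which moved the median of all genes from 0.08 to 1.04, *Myh7* (-1.71), *Myh7b* (-1.06) and *Myh13* (-1.18) were called lower and *Myh3* (4.53) and *Myh8* (3.69) higher on the log2 scale. *Myh4* was at -0.12 there and was not called (adjusted p = 0.190, limma). Under this scaling 8555 of the 16414 tested genes were called higher and 58 lower. Relative to the shifted median the values were 3.49 for *Myh3*, 2.65 for *Myh8*, -2.74 for *Myh7*, -2.22 for *Myh13*, -2.09 for *Myh7b* and -1.16 for *Myh4*. Taking off that median largely undoes the scaling. The part of these cells in the myosin values was not tested otherwise.

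The antisense gene *Myhas* overlaps *Myh1* on the minus strand. It was at 74.1, 55.1, 26.8, 47.2 and 80.0 normalized counts in HRS legs and at 140, 119, 126, 128 and 96.7 in contralateral legs. All HRS legs were below all PBS legs, and the log2 fold change was -1.18 (SE 0.224, adjusted p = 0.000621, limma). The library kit marks strand, but whether the counting used it is not stated, so reads of *Myhas* and *Myh1* may not be separate. *Myh2*, *Myh7*, *Myh7b*, *Myh6*, *Myh13* and *Myh3* also overlap other annotated genes or small RNAs.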

How the data were processed

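Bulk RNA of 16 hamstring libraries from 9 mice was analysed. The authors deposited normalized counts per gene, a linear signal of 0 or more. The deposited table also gives start, stop and length columns, which were used as positions only. Its gene positions had the same start and end as GENCODE M21 (GRCm38) for 99.0% of 25652 matched genes, with a stop 1 base later, whereas the submitters' processing notes list mm39 and GRCm39, STAR 2.7.8a and limma. The scaling and strand use of the authors' counting are not given in the sources used here. Library totals were 726797 to 1252360. In each library 75.4% to 77.7% of its low values fell within 0.02 of a multiple of 1 step, too few to rebuild reads, so count models were not used. There were 0 unused sample columns.

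Tests used limma 3.58.1 in R 4.3.3 (lmFit, then eBayes with trend) on log2(normalized count + 0.5), so fold changes of low genes are understated, for the 16414 genes whose mean reached 0.5. The 4 groups shared 1 estimate of the spread. P-values were adjusted by Benjamini-Hochberg over all genes tested, and a call required an adjusted p below 0.05 with a log2 change larger than 1 in size. The fits were tested on simulated data. Single genes and ratios were also compared by exact permutation and by sign flips over 5 mice, which cannot go below p = 0.0625. Libraries of 1 group are separate mice, apart from the PBS-only legs.

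Per-kb levels divided by the length of a GENCODE transcript. Promoter windows came from RefSeq (GRCm38.p6), which held all 9 members. All members were named, with from each list the 2 genes of largest change among those called and moved alike in all 5 mice, and for each member its 3 nearest genes by correlation. The members and lists were chosen with earlier results of these data known.

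Legs with the same mouse number come from the same animal by the labels, so they pair. Their deviations from group means correlated across genes at 0.12, 0.16, 0.097, -0.026 and -0.37 in m862 to m866. Alternatives changed the pseudocount, filter, scaling, block, weights, trend and libraries. Human libraries and single cells were not used here. Calls in the higher direction among the fibre type regulators are not reported here.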

Additional observations from a re-analysis of the deposited data

Results flagged for a closer look

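In 4 of 48 groups of values compared, 1 library lay far from the rest of its group, by the gap to its nearest neighbour relative to the group's range. Chance gives this in about 1 in 20 groups. *Myh8* had a log2 value of 4.13 in the HRS leg of m866, where the other HRS legs lay between 8.27 and 9.70. The log2 ratio of *Myh1* to *Myh4* was -3.90 in the same leg and -2.74 to -2.51 in the other HRS legs. That ratio was -2.81 in the contralateral leg of m864, against -3.78 to -3.56 in the other contralateral legs. The share of *Myh6*, *Myh7b* and *Myh13* together was 0.349% in the right PBS-only leg of m868, where depth was lowest, and 0.0801% to 0.122% in the other PBS-only legs.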

How the results depend on the processing

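For the 9 genes between HRS and contralateral legs, 215 of 234 gene and setting combinations kept call and direction, 11 lost a call, 5 gained one and 0 reversed. Against PBS-only mice, 184 of 216 kept them for HRS legs and 166 of 180 for HRS-MBP. Calls of *Myh7*, *Myh7b*, *Myh13* and *Myh3* between legs held in all 26 settings. The exact p of 5 leg pairs could not reach 0.05, and the shallowest library, where 3 reads were worth 0.364 normalized counts, limits low genes.

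With mouse as a fixed replicate block, the pairing left 1 member higher between legs, and with a random replicate block 2 were higher in HRS legs than in PBS-only mice. That number was also 2 with total scaling, voom, muscle marker scaling, without mouse m866 and without the HRS leg of m866 and both legs of m868 (chosen after seeing the data). A filter at a mean of 5 gave 2510 called genes between legs, 2650 for HRS legs against PBS-only mice, 0 for contralateral legs and 13 for HRS-MBP against HRS legs. Muscle marker scaling gave 8613 genes between legs, 8555 higher and 58 lower, with 3 members lower. It gave 8381 for HRS legs against PBS-only mice, 8318 higher and 63 lower, with 1 member lower. For contralateral legs it gave 0 genes. HRS-MBP against PBS-only mice had 9530, with 9417 higher and 113 lower and 1 member higher. Averaging the legs of each PBS-only mouse gave 3 members lower and 0 higher in HRS legs, 0 genes for contralateral legs and 49 for HRS-MBP against HRS legs.

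For contralateral legs the 1 called gene became 0 also with total scaling, voom, no filter, only the groups compared, a smaller pseudocount and the reduced set of libraries, 2 with quantile normalization and 3 without mouse m866. HRS-MBP against PBS-only mice had 1 member higher with only the groups compared and with the reduced set. HRS-MBP against HRS legs gave 124 genes in the reduced set, 4 with only the groups compared and 208 without mouse m866.

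Leaving out 1 library at a time gave 1 to 2 members higher between legs, 1 to 2 higher and 3 to 6 lower in HRS legs against PBS-only mice, 2 to 5 lower for HRS-MBP against PBS-only mice, 0 to 1 lower for HRS-MBP against HRS legs, 0 to 2 called genes for contralateral legs, and 25 to 590 for HRS-MBP against HRS legs. The *Myh1* to *Myh4* ratio difference ranged from 0.52 to 0.84. The causes of these changes were not tested.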
